A study of Homo sapiens with 12 samples.

Results

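Plasminogen activation in lung fibroblasts was followed through 4 genes. PLAT encodes tissue plasminogen activator, PLAU encodes urokinase, PLAUR encodes the cell surface receptor of urokinase, and SERPINE2 encodes protease nexin-1, a secreted serpin. They were found by their gene symbols, 4 of the 25702 genes counted, and all 4 belonged to the 9490 genes with at least 10 cpm (counts scaled to library size and between libraries) in at least 6 of the 12 libraries. The cells were WI-38, an established human lung fibroblast line, grown in medium with foetal bovine serum. D1 flasks had a change of medium and were harvested after 1 day, and D1+ TGF-β flasks were harvested 1 day after the addition of 2 ng/mL TGF-β. D20 and D20+ TGF-β flasks were kept for 20 days without or with TGF-β in medium that was renewed throughout. RNA of 3 flasks per condition was sequenced.

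These groups have limits as a model. WI-38 is 1 line, and the D20 flasks of each treatment were all seeded from 1 flask, so the p-values measure the spread between flasks that share a source. The labels put D1 cells at passages 2 to 3 and D20 cells at passages 5 to 6, so days in culture and passage cannot be told apart. By the paper's methods, D1 flasks were confluent at the start, while D20 flasks were reseeded to be nearly confluent at harvest. Replating and cell density therefore also go with days in culture. In bulk RNA, fewer cells of a type and less RNA per cell cannot be told apart either. Total counts ranged from 8674488 to 18286197 per library. All 10 of 10 fibroblast markers, among them VIM, COL1A1 and PDGFRA, were at 10 cpm or more in every library, while no endothelial marker of 4 reached that level and CD68 was the only immune marker of 4 that did. Of 5 epithelial markers only KRT19 passed it, in some libraries, with SFTPC, CDH1 and KRT5 at or near 0. Of 4 smooth muscle markers, ACTA2, TAGLN and CNN1 were expressed and MYH11, a defining gene of mature smooth muscle, stayed between 0.255 and 1.196 cpm. The summed smooth muscle markers moved with TGF-β at D1, from 902 to 1469 cpm in D1 flasks to between 2624 and 2861 cpm in D1+ TGF-β flasks, and lay between 1397 and 1485 cpm at D20 and between 1418 and 1653 cpm at D20+ TGF-β. Over all flasks TAGLN was between 745 and 1922 cpm, and ACTA2, which encodes α-smooth muscle actin, between 125 and 850 cpm. The sum therefore does not show how ACTA2 itself differed between conditions, which was not compared. From blots and stains, the paper reports more α-smooth muscle actin and a myofibroblast phenotype after the long TGF-β treatment. The summed markers are no measure of that protein. The part of cells with smooth muscle markers in the results was not tested.

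Plasminogen is an inactive zymogen that reaches tissues from the blood. Tissue plasminogen activator and urokinase cut it to plasmin, a protease that dissolves fibrin, degrades matrix proteins and can release growth factors, TGF-β among them, from latent stores. Urokinase acts mostly while bound to its receptor on the cell surface, which focuses proteolysis at the front of moving cells. Protease nexin-1 traps thrombin, urokinase and tissue plasminogen activator in covalent complexes, which cells take up and degrade through receptors of the LDL receptor family.

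On GRCh37, the build of the deposited counts, PLAU lies on the plus strand at chr10:75668935-75677254. PLAUR lies on the minus strand at chr19:44150247-44174699 and SERPINE2 on the minus strand at chr2:224839762-224904035. Exons of the long noncoding gene C10orf55 overlap PLAU on the opposite strand. Counts on C10orf55 were between 1.89 and 3.92 cpm, and whether the counting used strand is not given in the sources used here, so reads of the opposite strands cannot be told apart. RefSeq promoter windows (the bases before a transcript start) were listed at 2 starts for PLAU, at 1 for PLAUR and at 2 for SERPINE2. Windows of the genes called higher with TGF-β at both times are shown, in lower case with motif matches in capitals and positions counted back from the base before the RefSeq start. The PLAUR window held 1 match to the AP-1 element TGANTCA and 1 to the SMAD box (GTCTG, or CAGAC on the other strand). The first begins at −186 (chr19:44174490-44174518, minus strand, GRCh37) and the second at −51 (chr19:44174356-44174384). In the GENCODE annotation 1 PLAUR exon touches this window, so the matches are given as short stretches:
PLAUR AP-1 match: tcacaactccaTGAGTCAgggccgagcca
PLAUR SMAD box match: ctttcgcaaaacGTCTGggaggagtccct
In the first listed windows of 27305 genes, of the same length, 6.60% held an AP-1 match and 37.8% a SMAD box match. Both SERPINE2 windows and the first listed window of PLAU held neither, and the second of PLAU held 1 SMAD box match and no AP-1 match. The first listed SERPINE2 window (chr2:224896196-224896445, minus strand, GRCh37) belongs to a start 7840 bases inside the annotated gene, touches no exon and is built of repeats with 7 CCAAT or ATTGG matches, a motif chosen after the sequence was read. The second listed window held 0 of these and is not shown:
SERPINE2 promoter window: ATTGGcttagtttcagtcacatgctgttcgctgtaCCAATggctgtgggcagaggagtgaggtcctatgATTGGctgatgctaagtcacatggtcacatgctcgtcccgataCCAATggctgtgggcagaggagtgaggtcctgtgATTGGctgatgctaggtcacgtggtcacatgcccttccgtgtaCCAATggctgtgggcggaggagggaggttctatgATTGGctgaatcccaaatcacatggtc
Successive CCAAT matches on the printed strand are 77 bases apart. Of the first listed windows, 33.0% held at least 1 match, with at least 7 matches in 6 windows (0.0220%), that of SERPINE2 included. A match is a run of letters and was not tested for binding.

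The comparisons asked how the 4 genes responded to 1 day of TGF-β, how they differed between treated and untreated cells after 20 days, and how each treatment group differed between the times. Levels are cpm after TMM scaling, as mean ± SD of 3 flasks. Differences were tested by edgeR's quasi-likelihood test over all 12 libraries with Benjamini-Hochberg adjustment over the 9490 genes, and calls were made where the adjusted p was under 0.01. Up to 23 alternatives were computed for each value, with other tools, scalings, gene filters and sets of libraries. Of the 4 genes, 3 were called after 1 day of TGF-β (D1+ TGF-β vs D1), with 2 of them higher and 1 lower, where 13.4% of all genes were called, 6.89% higher and 6.50% lower. The flasks of both conditions did not overlap for 4 of the 4 genes, against 36.4% of all genes. In D20+ TGF-β vs D20, 2 were called, both higher, against 27.5% of all genes, 12.8% higher and 14.7% lower, and the flasks of 3 did not overlap, against 58.3%. D20+ TGF-β vs D1+ TGF-β gave 2 calls, 1 in each direction, against 34.8% (17.2% higher and 17.7% lower), and 3 genes without overlap against 63.2%. D20 vs D1 gave 1 call, lower, against 36.4% (18.9% higher and 17.6% lower), and 1 gene without overlap against 55.6%. The comparisons share their groups in pairs, so these counts are not independent of each other.

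**Figure D1:**
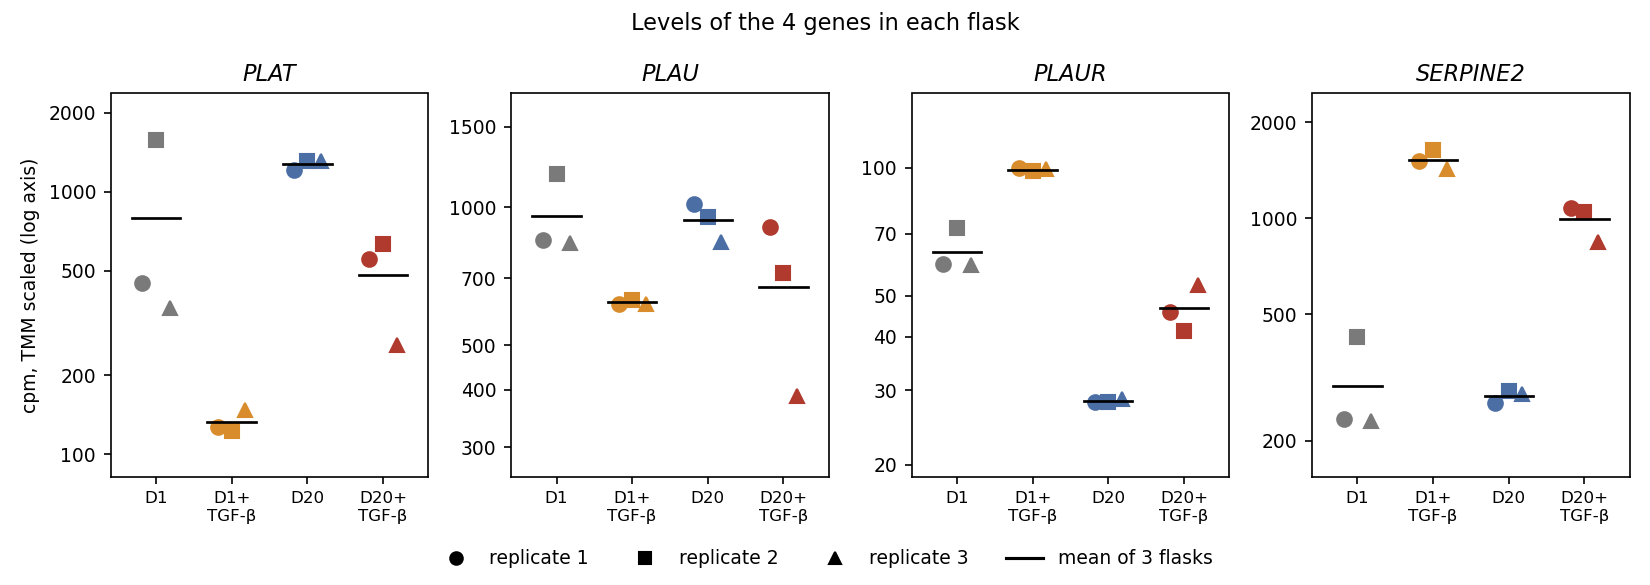
Levels of PLAT, PLAU, PLAUR and SERPINE2 in cpm (TMM scaled, log axis) in the 3 flasks of each condition, with the mean as a line and a symbol for each replicate number. SERPINE2 was at 843 cpm or more in every flask with TGF-β and at 425 cpm or less in every flask without it, and the widest spread within a condition was that of PLAT at D1, from 362 to 1579.6 cpm.

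PLAT, the activator best known for dissolving fibrin clots, was lowest in cells treated for 1 day. The gene lies on the minus strand at chr8:42032236-42065227 (GRCh37). Its level at D1 was 449.5, 1579.6 and 362 cpm in replicates 1, 2 and 3 (797 ± 679). At D1+ TGF-β it was 127, 123 and 148 cpm (133 ± 13.2). All treated flasks lay below all untreated ones, and replicate 2 of D1 stood far above the other untreated flasks. The log2 fold change was −2.59 (SE 0.46, 95% interval −3.59 to −1.59, edgeR adjusted p = 0.00125), a level 6.02-fold lower. The size of this change rested on D1 replicate 2: without that library it was −1.61 (adjusted p = 3.71e-04), still called. Without D1+ TGF-β replicate 2 the call was lost by a small margin (−2.54, adjusted p = 0.0106), the highest of the 23 alternatives, whose p began at 5.77e-12.

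After 20 days PLAT stood at 1207, 1311 and 1311 cpm in untreated flasks (1276 ± 60.2), its highest level. In D20+ TGF-β flasks it was 557, 633 and 259.6 cpm (483 ± 197), with replicate 3 lowest. The groups did not overlap, but the log2 fold change of −1.40 (SE 0.44, interval −2.35 to −0.45) missed the threshold at an adjusted p of 0.0209. It was called without D1 replicate 2 (−1.38, adjusted p = 2.33e-04), and the p of its alternatives ranged from 1.41e-08 to 0.0635. With both D1 replicate 2 and D20+ TGF-β replicate 3 left out, a choice made after the data were seen, it was −1.09 (SE 0.09) and had that lowest p. Between the treated groups PLAT was higher at D20+ TGF-β than at D1+ TGF-β without overlap of flasks, 3.65-fold (log2 1.87, SE 0.45, adjusted p = 0.00396). That call was lost without any 1 of 5 libraries, the 3 of D1+ TGF-β and replicates 1 and 2 of D20+ TGF-β, at adjusted p between 0.0131 and 0.0198, with the change between 1.63 and 1.95.

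The untreated cells of the 2 times overlapped in PLAT, since D1 replicate 2 lay above the D20 flasks. The D20 vs D1 change was 0.68 (SE 0.43, interval −0.26 to 1.61, adjusted p = 0.209). Without D1 replicate 2 it was 1.64 (adjusted p = 1.67e-04), and with both libraries left out 1.64 as well (adjusted p = 5.27e-11), in a range of p up to 0.548. From lowest to highest the order of PLAT was D1+ TGF-β, D20+ TGF-β, D1 and D20. D20+ TGF-β and D1 were neighbours that did not differ beyond their spread (−0.72, SE 0.44, adjusted p = 0.191), and without D1 replicate 2 their order turned (0.26, adjusted p = 0.422, alternatives between 1.25e-04 and 0.442). The 4 lanes of D1 replicate 2 each gave between 1582 and 1636 cpm on library size alone, so the high value was in the library and not in a lane.

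PLAU, whose product is the activator that works on the cell surface, had its lowest mean at D1+ TGF-β and did not pass the threshold in a comparison with all 12 libraries. It stood at 849, 1181 and 836 cpm at D1 (955 ± 195), against 616, 629 and 617 cpm at D1+ TGF-β (621 ± 7.06). Every treated flask lay below every untreated flask, by −0.62 on the log2 scale (SE 0.22, interval −1.11 to −0.14), without passing the threshold (adjusted p = 0.0588). Leaving out D20+ TGF-β replicate 3, which is not in that comparison but takes part in the shared estimate of spread, gave a call at −0.62 (adjusted p = 0.00241, alternatives between 1.01e-05 and 0.155).

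Untreated D20 flasks held 1016, 954 and 839 cpm of PLAU (936 ± 89.5), and D20+ TGF-β flasks 905, 719.7 and 388 cpm (671 ± 262). Replicate 1 of the treated flasks lay within the untreated range and replicate 3 far below it. The difference was −0.48 (SE 0.22, interval −0.96 to 0.0016, adjusted p = 0.103). Its size rested on those flasks: it was −0.20 (adjusted p = 0.282) without replicate 3 and −0.75 (adjusted p = 0.0172) without replicate 1, and −0.19 with both D1 replicate 2 and D20+ TGF-β replicate 3 left out (adjusted p = 0.0810, alternatives from 3.78e-05 to 0.282). No neighbours in the order D1+ TGF-β, D20+ TGF-β, D20 and D1 differed past the threshold. The differences were 0.11 (SE 0.22, adjusted p = 0.698) between the treated groups (D20 minus D1) and −0.03 (SE 0.22, interval −0.51 to 0.45, adjusted p = 0.924) for D20 vs D1. D20 flasks lay above D1+ TGF-β flasks without overlap, by 0.59 (SE 0.22), which did not pass the threshold (adjusted p = 0.0344), in a comparison in which 47.9% of all genes were called.

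PLAUR, which binds urokinase and holds it at the membrane, had an SD of 0.872% to 12.7% of the mean in the 4 conditions and was called in each of the 4 comparisons. It rose with TGF-β at both times and was lower at D20 than at D1 in both treatment groups. At D1 the flasks held 59.4, 72.2 and 59.0 cpm (63.5 ± 7.53) and at D1+ TGF-β 99.6, 98.002 and 99.3 cpm (99.0 ± 0.864). All treated flasks were higher, by 0.64 on the log2 scale (SE 0.09, adjusted p = 2.73e-04), which is 1.56-fold.

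At D20 PLAUR was 28.1, 28.2 and 28.6 cpm (28.3 ± 0.253), and at D20+ TGF-β it was 45.7, 41.3 and 53.1 cpm (46.7 ± 5.94), again without overlap. The change was 0.72 (SE 0.10, adjusted p = 7.44e-05), or 1.65-fold. Between the times it fell 2.25-fold in untreated cells (log2 −1.17, SE 0.10, adjusted p = 6.94e-07) and 2.12-fold in treated cells (log2 −1.08, SE 0.10, adjusted p = 2.63e-06). These 4 calls were made in 23 of 23 alternatives. All neighbours in the order D20, D20+ TGF-β, D1 and D1+ TGF-β differed. The closest of them were D20+ TGF-β and D1 (log2 −0.45, SE 0.10, adjusted p = 0.00195, in a comparison with 30.8% of all genes called). That call was lost without D20+ TGF-β replicate 1 or 2, at adjusted p of 0.0120 and 0.0118, in a range of alternatives from 3.39e-09 to 0.0288.

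SERPINE2, the serpin, had the largest rise with TGF-β of these genes. The untreated D1 flasks held 235, 425 and 231 cpm (297 ± 111), and the D1+ TGF-β flasks 1514, 1644 and 1426 cpm (1528 ± 109.6). The lowest treated flask was far above the highest untreated one. The log2 fold change was 2.36 (SE 0.19, interval 1.94 to 2.78, adjusted p = 2.27e-06), a 5.14-fold higher level. It was called in 23 of 23 alternatives, which lay between 2.21 and 2.72.

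The rise was also seen after 20 days. SERPINE2 was at 262, 286 and 279.7 cpm at D20 (276 ± 12.4) and at 1081, 1049.9 and 843 cpm at D20+ TGF-β (991 ± 129.5), with replicate 3 the lowest of the treated flasks and still well clear of the untreated ones. The change was 1.84 (SE 0.19, interval 1.43 to 2.26, adjusted p = 6.86e-06), or 3.59-fold, and was called in 23 of 23 alternatives. Untreated cells of the 2 times overlapped, with a D20 vs D1 difference of −0.11 (SE 0.19, interval −0.51 to 0.30, adjusted p = 0.660). Its sign turned without D1 replicate 2 (0.23, adjusted p = 0.0629, alternatives between 0.00755 and 0.867).

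D20+ TGF-β cells held less SERPINE2 than D1+ TGF-β cells in all flasks, by −0.62 on the log2 scale (SE 0.19, interval −1.02 to −0.23), which just missed the threshold (adjusted p = 0.0130). It was called in 10 of 23 alternatives, among them the omission of D1 replicate 1, 2 or 3 (adjusted p = 0.00991, 4.88e-05 and 0.00903), in a range from 2.15e-09 to 0.0490. With the groups ordered as D20, D1, D20+ TGF-β and then D1+ TGF-β, the step from D1 to D20+ TGF-β (1.74, SE 0.19, adjusted p = 1.43e-05) was the only one between neighbours past the threshold.

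**Figure D2:**
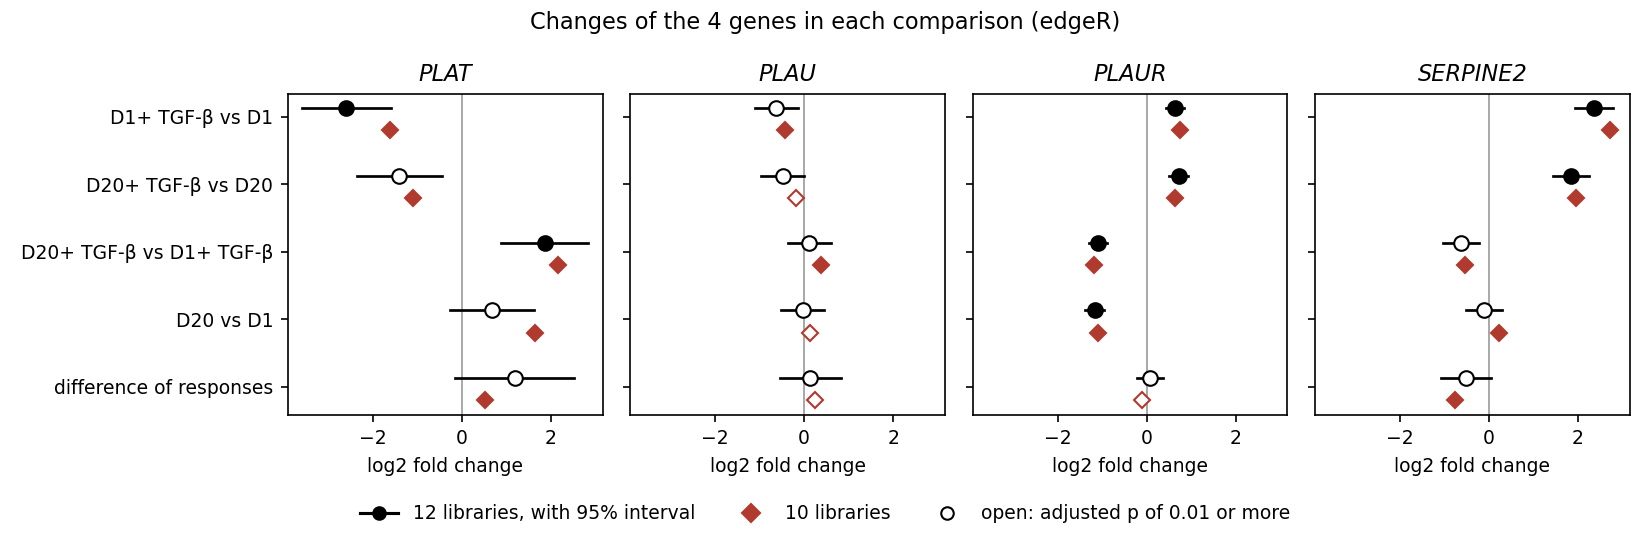
Log2 fold changes of the 4 genes in each comparison (horizontal axis), with 95% intervals from all 12 libraries (circles) and the values from 10 libraries, without D1 replicate 2 and D20+ TGF-β replicate 3 (diamonds). Filled symbols have an adjusted p under 0.01. Without the 2 libraries the D20 vs D1 change of PLAT went from 0.68 to 1.64, that of SERPINE2 turned from −0.11 to 0.23 and was called, and the TGF-β response of SERPINE2 at D1 went from 2.36 to 2.72.

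Whether the TGF-β response differed between the times was tested as the response at D20 minus that at D1. None of the 4 genes was called, and 0 had an unadjusted p under 0.05 by edgeR, where 10.4% of all genes were called, 4.51% higher and 5.87% lower. DESeq2 and limma-voom on the 12 libraries called 0 as well, with SERPINE2 at an unadjusted p under 0.05 in both. The difference was 1.19 for PLAT (SE 0.62, interval −0.14 to 2.52, adjusted p = 0.191), the D20 value being the less negative. For SERPINE2 it was −0.52 (SE 0.26, interval −1.09 to 0.05, adjusted p = 0.180), the D20 value being the smaller. It was called for SERPINE2 without D1 replicate 2 (−0.86, adjusted p = 3.81e-04) and with both libraries left out (−0.76, SE 0.10, adjusted p = 6.36e-06, with a highest p of 0.338 among the alternatives). For PLAT, D1 replicate 2 alone took it to 0.22, and the omission of both libraries gave 0.52 (SE 0.13, adjusted p = 0.00371, against up to 0.650). PLAU and PLAUR had differences of 0.14 (SE 0.32) and 0.08 (SE 0.14), and these intervals, −0.54 to 0.82 and −0.21 to 0.38, leave room for responses that differ.

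Levels of different genes were compared only per length, as cpm per kilobase of all annotated exons of a gene. On that scale PLAU was the highest of the 4 in each condition, from 210.5 ± 2.39 at D1+ TGF-β to 324 ± 66.3 at D1. SERPINE2 was below PLAT in untreated cells and above it in treated cells. At D1 SERPINE2 over PLAT was 0.453, 0.233 and 0.554 in the 3 flasks, and at D1+ TGF-β it was 10.3, 11.6 and 8.38. At D20 the ratio was 0.189, 0.189 and 0.185, and at D20+ TGF-β 1.68, 1.44 and 2.82. By this length every treated flask had more SERPINE2 than PLAT and every untreated flask less, with means of 0.413 ± 0.164, 10.1 ± 1.62, 0.188 ± 0.00233 and 1.98 ± 0.735 in the 4 conditions in this order.

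The level of a ratio between genes depends on the length taken. With the length of the longest transcript the mean ratios were 0.275, 6.73, 0.125 and 1.32, which keeps the order of the conditions by construction. D20+ TGF-β replicate 2 then had less SERPINE2 than PLAT (a ratio of 0.958), while the other 5 treated flasks stayed above 1. That length put SERPINE2 first at D1+ TGF-β (255 against 234 for PLAU) and PLAT first at D20 (369 against 352), so the top place in those conditions is not settled by these data. PLAUR was the lowest per length except at D1+ TGF-β, where PLAT was (17.1 ± 1.70 against 22.2 ± 0.194 per kilobase of exon).

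**Figure D3:**
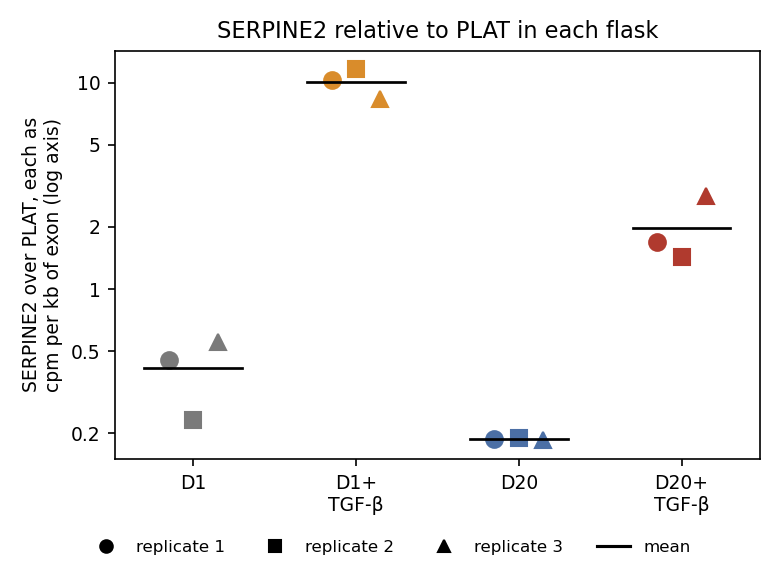
SERPINE2 level over PLAT level in each flask, each as cpm per kilobase of exon (log axis), with the mean of 3 flasks as a line. With this length all 6 flasks with TGF-β lie above 1 and all 6 without it below 1, and with the longest transcript D20+ TGF-β replicate 2 is at 0.958.

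The flasks that stood apart were looked at across all genes. The distance was taken on the log2 scale from the mean of the other 2 flasks of the condition. D1 replicate 2 had 110 genes at a distance of 1 or more, 74 of them higher, and D20+ TGF-β replicate 3 had 116, 97 of them lower. No flask of D1+ TGF-β or D20 had any, and the other flasks of D1 and D20+ TGF-β had 4 to 17. PLAT in D1 replicate 2 was 1.97 above the others, a distance that 10 genes exceeded, and in D20+ TGF-β replicate 3 it was at −1.19. PLAU was at −1.06 in the latter. SERPINE2 was 0.87 above in D1 replicate 2, and PLAUR was 0.29 above in each of the 2 libraries. TFPI2, a secreted inhibitor of plasmin and other proteases, was at the largest distance of all genes in both, at 2.94 and −3.46. The summed smooth muscle markers were 902 cpm in D1 replicate 2 against 1346 and 1469 cpm in the other D1 flasks, and 1653 cpm in D20+ TGF-β replicate 3 against 1418 and 1430 cpm. Their part in the result was not tested.

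**Figure D4:**
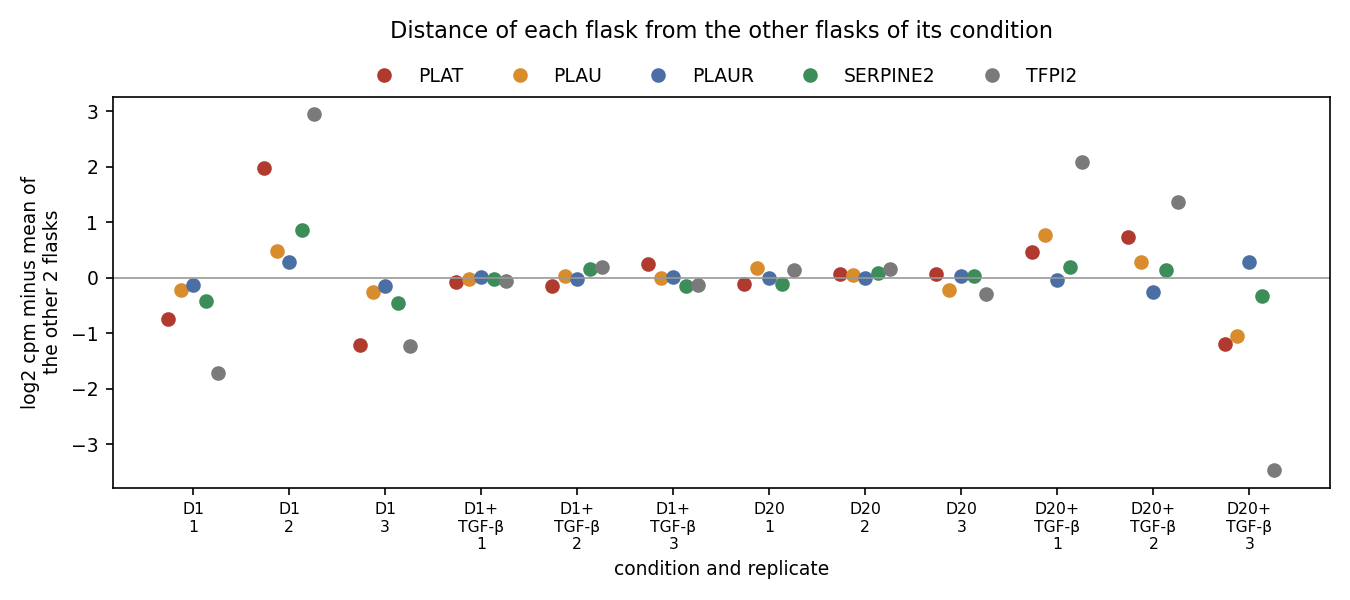
Distance of each flask from the mean of the other 2 flasks of its condition (log2 cpm) for the 4 genes and TFPI2. D1 replicate 2 lies high and D20+ TGF-β replicate 3 low for PLAT, PLAU and TFPI2, and the flasks of D1+ TGF-β and D20 lie near 0.

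For each gene, the 3 tested genes with the most similar pattern were named by the root mean square of the log2 difference over the 12 libraries, each gene centred on its own mean. They describe likeness in the same libraries and are given without a test. Nearest to PLAT, whose own root mean square spread was 1.31, were PCDH18, a protocadherin (0.25), IL1R1, the signalling receptor of interleukin-1 (0.26), and TCF21, a mesenchymal transcription factor (0.30). All of them had the raised D1 replicate 2 as well: IL1R1 stood at 114, 264 and 92.3 cpm at D1, between 40.3 and 43.1 cpm at D1+ TGF-β, between 369 and 398 cpm at D20, and at 175, 192 and 66.5 cpm at D20+ TGF-β. Nearest to SERPINE2 (spread 1.11) were SIK1, a kinase of the AMPK family (0.16), CDH2, which encodes N-cadherin (0.30), and F2RL1, which encodes protease-activated receptor 2 (0.35). SIK1 was a low gene, at 3.64 ± 1.83 cpm at D1 and 17.3 ± 1.09 cpm at D1+ TGF-β, then 3.59 ± 0.0467 cpm at D20 and 12.8 ± 1.92 cpm at D20+ TGF-β. With 2.21 to 5.71 cpm in flasks without TGF-β, it passed the filter only through the TGF-β groups, where it was high. F2RL1, between 5.57 and 11.7 cpm without TGF-β, also needed those groups to pass.

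PLAUR (spread 0.66) had its nearest neighbours in BCAR3, an adaptor of integrin signalling, USP1, a deubiquitinase of DNA repair, and SIPA1L3, all at 0.16. BCAR3 was 40.7 ± 3.42, 61.3 ± 1.22, 20.7 ± 1.91 and 28.8 ± 5.69 cpm in D1, D1+ TGF-β, then D20 and then D20+ TGF-β flasks. Nearest to PLAU were ARSI, a sulfatase, HSPA1A, an inducible HSP70, and TLE3, a transcriptional corepressor, at 0.20 to 0.21. These distances were not far below the spread of PLAU itself (0.41), so that likeness was loose, and HSPA1A has a near-identical copy with which its reads may be shared.

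The rest of the plasminogen system was described with 31 genes grouped by role, of which 17 passed the filter. Of the inhibitors 2 of 6 passed, of the proteases and zymogens 0 of 6, of the binding proteins and receptors 7 of 9, of the endocytic receptors and their chaperone 5 of 6, and of the growth factors cut by these proteases 3 of 4. PLG, the gene of plasminogen itself, and SERPINA5 had no count in any library, and the other genes that failed the filter had at most 9.91 cpm in any flask. Of the 17, 6 were called in D1+ TGF-β vs D1, 3 in each direction, against 13.4% of all genes. In D20+ TGF-β vs D20 10 were called, 5 in each direction, against 27.5%. Between the treated groups 7 were called (4 higher and 3 lower at D20), a share of 41.2% against 34.8% of all genes, and in D20 vs D1 6 (4 higher and 2 lower), 35.3% against 36.4%, so both shares were near the background. Their median log2 changes were −0.10, −0.03, 0.20 and 0.10 in these comparisons, beside −0.02, 0.01, 0.01 and 0.01 over all genes tested. Calls thus stood in both directions. These counts hold only the genes that passed the filter. PDGFD, counted in both comparisons between the times, passed it only through the D20 groups, and VLDLR, counted in both TGF-β comparisons, needed the TGF-β groups to pass.

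Among the inhibitors, A2M, which encodes the broad protease trap α2-macroglobulin, had the largest change. It was at 456, 524 and 484 cpm at D20 and at 22.2, 26.3 and 10.1 cpm at D20+ TGF-β, a fall of 24.8-fold (log2 −4.63, SE 0.33, adjusted p = 1.97e-07). At D1 it was 188, 264 and 112 cpm, and at D1+ TGF-β 96.0, 120.1 and 118 cpm, which overlapped (log2 −0.75, SE 0.28, adjusted p = 0.0629). It was called at D1 without D1 replicate 3 (−1.02, adjusted p = 0.00967, alternatives between 1.49e-05 and 0.199). TFPI2 followed the outlying flasks, with 68.1, 587 and 85.4 cpm at D1, 101, 113 and 97.2 cpm at D1+ TGF-β. It then had 48.6, 49.3 and 39.9 cpm at D20 and 277, 198 and 21.1 cpm at D20+ TGF-β. Leaving out both outlying libraries was chosen after the data were seen and removes the flasks in which TFPI2 itself was most distant. The p-values of that fit are therefore no support and are not given. Its D20+ TGF-β vs D20 change was then 2.40, against 1.86 with all 12 libraries (SE 0.80, adjusted p = 0.0780, alternatives up to 0.283). In the same alternative the D1+ TGF-β vs D1 change of TFPI2 turned from −1.26 (adjusted p = 0.255, alternatives up to 0.692) to 0.45. D20 vs D1 shrank from −2.44 (adjusted p = 0.0224, called in 4 of 23 alternatives, with p up to 0.300) to −0.76.

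The proteins that bind plasminogen or urokinase at the surface were split. ANXA2 and S100A10 encode the chains of the annexin A2 complex, a docking site for plasminogen and tissue plasminogen activator. S100A10 was at 194, 192 and 234 cpm at D1 and fell to 155, 136 and 141 cpm at D1+ TGF-β (log2 −0.52, SE 0.10, adjusted p = 0.00213), a call that was lost without D1+ TGF-β replicate 2 or 3 (adjusted p = 0.0175 and 0.0112). It also fell at D20+ TGF-β vs D20, by −0.54 (SE 0.10, adjusted p = 7.99e-04). ANXA2 did not differ past the threshold at D1 (0.02, SE 0.12) and was lower at D20+ TGF-β, with 1068, 1065 and 1422 cpm against 1953, 1904 and 1752 cpm at D20 (log2 −0.66, SE 0.12, adjusted p = 6.40e-04). MRC2, an endocytic collagen receptor that joins the urokinase receptor complex, rose at both times, by 0.57 at D1 (SE 0.11, adjusted p = 0.00189) and by 0.89 at D20 (SE 0.11, adjusted p = 2.66e-05). The first of these was lost without D1+ TGF-β replicate 3 (0.51, adjusted p = 0.0111). F2R, the thrombin receptor, was 0.35 lower on the log2 scale at D20+ TGF-β than at D20 at an adjusted p of 0.00914, and that call was lost without any 1 of 10 libraries (adjusted p between 0.0103 and 0.0362). ENO1, a glycolytic enzyme that also binds plasminogen at the surface, was lower at D20 than at D1 in untreated cells (log2 −0.79, SE 0.10, adjusted p = 1.85e-05) and in treated cells (log2 −0.48, SE 0.10, adjusted p = 0.00115). The plasminogen receptor gene PLGRKT was a low gene, between 9.56 and 17.2 cpm, with values of 0.42 (SE 0.13) and 0.45 (SE 0.13) for TGF-β at D1 and D20 that did not pass the threshold (adjusted p = 0.0332 and 0.0161). The second was called without D1 replicate 2 (0.47, adjusted p = 0.00919) or without D20+ TGF-β replicate 2 (0.55, adjusted p = 0.00606).

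Of the receptors that clear serpin and protease complexes, LRP1, the main one in fibroblasts, did not pass the threshold in a comparison with all 12 libraries. It was between 1139 and 1775 cpm at D1, between 1599.6 and 1817 cpm at D1+ TGF-β, between 1758 and 1969 cpm at D20 and between 1661 and 1987 cpm at D20+ TGF-β. The D20 vs D1 value of 0.36 (SE 0.13, adjusted p = 0.0344) was called without D1 replicate 1 (0.53, adjusted p = 0.00250, alternatives from 1.82e-07 to 0.135). VLDLR rose from 7.90, 13.6 and 7.32 cpm at D1 to 18.7, 22.5 and 23.0 cpm at D1+ TGF-β (log2 1.13, SE 0.20, adjusted p = 0.00100). At D20 it was 11.5, 15.03 and 16.3 cpm and at D20+ TGF-β 24.6, 23.8 and 27.2 cpm (log2 0.80, SE 0.19, adjusted p = 0.00362), and this call was lost without D20 replicate 1 or 2 (adjusted p = 0.0176 and 0.0124). With D1 replicates 1 and 3 under 10 cpm, VLDLR needed the TGF-β groups, where it was high, to pass the filter. LRP8 did not move at D1 past the threshold (0.09, SE 0.11), with means of 32.2 cpm at D1 and 34.1 cpm at D1+ TGF-β. It was higher at D20+ TGF-β, with 27.95, 27.8 and 32.3 cpm against 16.5, 14.4 and 13.7 cpm at D20 (log2 0.99, SE 0.11, adjusted p = 1.77e-05). Untreated cells fell between the times (D20 vs D1 log2 −1.12, SE 0.11, adjusted p = 3.48e-06). Treated cells did not differ past the threshold (−0.22, SE 0.11, adjusted p = 0.107). SORL1, a sorting receptor of the same family, was higher at D20+ TGF-β by 0.67 (SE 0.14, adjusted p = 0.00169), which was lost without D20 replicate 2 (0.59, adjusted p = 0.0122).

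The growth factors that plasminogen activators or plasmin can cut were called in both directions. HGF, a factor that urokinase, among other proteases, is reported to activate, was at 203, 304 and 216 cpm at D1 and at 85.7, 89.6 and 76.7 cpm at D1+ TGF-β, a 2.87-fold fall (log2 −1.52, SE 0.16, adjusted p = 1.57e-05). At D20 it was 535, 465 and 464 cpm, and at D20+ TGF-β 214, 226 and 160.2 cpm (log2 −1.28, SE 0.15, adjusted p = 2.09e-05). PDGFC, which tissue plasminogen activator activates, rose by 0.91 at D1 (SE 0.08, adjusted p = 4.97e-06) and by 0.78 at D20 (SE 0.08, adjusted p = 7.47e-06), reaching 199 ± 8.76 and 188 ± 5.67 cpm. PDGFD, a substrate of urokinase, was between 0.591 and 2.66 cpm in the D1 and D1+ TGF-β flasks and between 10.7 and 23.6 cpm in the D20 and D20+ TGF-β flasks. With TGF-β at D1 it was lower by a narrow margin (log2 −1.52, SE 0.38, adjusted p = 0.00980), and this call was lost without any 1 of 9 libraries, at adjusted p between 0.0114 and 0.0483. It was higher by 3.17 at D20 vs D1 (SE 0.22) and by 4.24 at D20+ TGF-β vs D1+ TGF-β (SE 0.28). PDGFD passed the filter only through the D20 groups, where it was high. Its tests between the times are therefore no support for the rise, and their p-values are not given.

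**Figure D5:**
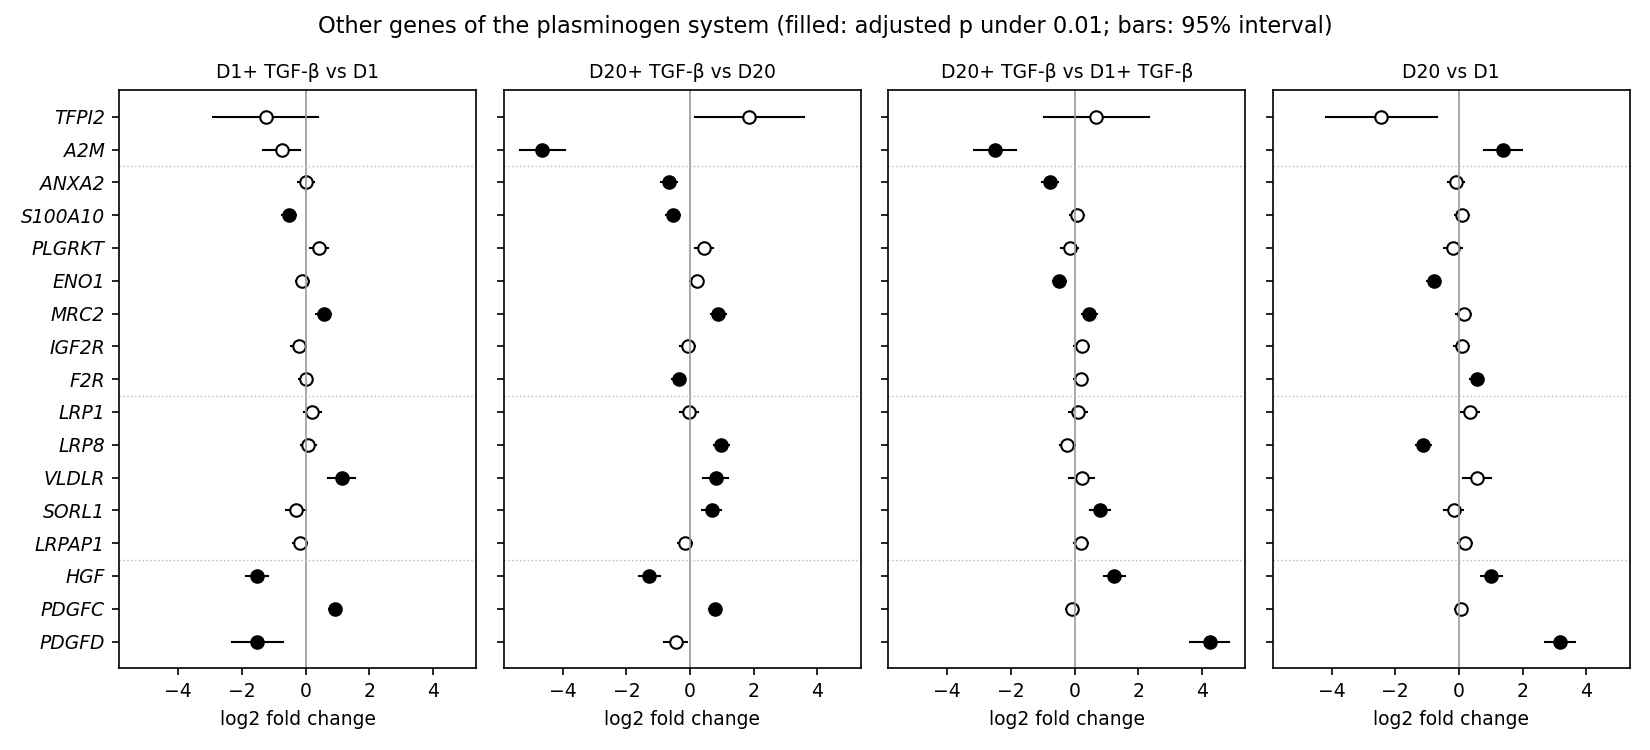
Log2 fold changes with 95% intervals of the 17 tested genes of the plasminogen system in the 4 comparisons, with inhibitors, binding proteins, endocytic receptors and growth factors from top to bottom. Filled points have an adjusted p under 0.01, and PDGFD passed the filter only through the D20 groups. HGF was called lower and PDGFC higher with TGF-β at both times, A2M fell at D20+ TGF-β vs D20, and the interval of TFPI2 was wide in each comparison.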

How the data were processed

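RNA of WI-38 fibroblasts was sequenced from 3 flasks in each of 4 conditions, every library on 4 lanes. The authors trimmed the reads with Trimmomatic, mapped them to hg19 with Rsubread and deposited raw counts per gene and lane, without normalization. The authors also deposited log2 cpm per gene and lane from voom for 9412 genes, used here as an alternative. The counting program, its annotation and its use of strand are not given in the sources used here.

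Lanes were summed. Of 20434 genes with a count, 9490 with at least 10 cpm in at least 6 libraries were tested, at totals of 8674488 to 18286197 counts per library, in R 4.3.3 with edgeR 4.0.16 (TMM, quasi-likelihood, 1 mean per condition, common biological coefficient of variation 9.35%) and Benjamini-Hochberg adjustment. SDs and standard errors are between flasks and include counting error. Alternatives were DESeq2 1.42.0, limma 3.58.1 (voom on libraries, voom on lanes, and the deposited log2 values), RLE or no composition factors, no filter, filterByExpr, only the 6 libraries compared, the replicate number as a block, each library left out in turn, and 2 libraries left out, which was added after seeing the data. The code was tested on simulated data.

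The members and lists were chosen with earlier results of these data known. Named were the 4 members, the listed genes of the plasminogen system, and the 3 genes nearest in pattern to each member. Of that list, 2 genes are not reported here. Gene positions are from GENCODE on GRCh37, and promoter windows from RefSeq (GRCh38.p14) were placed on GRCh37 by exact match.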

Additional observations from a re-analysis of the deposited data

Results flagged for a closer look

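Among the 4 members and the 17 tested genes of the plasminogen system, the test of the difference of responses called 3 genes, all among the 17 (17.6%, against 10.4% of all genes tested), whose TGF-β response at D20 differed from that at D1. The response of A2M was lower at D20 than at D1 by a log2 difference of −3.88 (SE 0.41, edgeR adjusted p = 4.69e-05), called in 22 of 22 alternatives. The gene was lower in D20+ TGF-β vs D20, while its D1 and D1+ TGF-β flasks overlapped. Between the times it rose in untreated cells (1.38, SE 0.27, adjusted p = 9.68e-04) and fell in treated cells (−2.50, SE 0.31, adjusted p = 3.07e-05). For LRP8 the log2 difference was 0.90 (SE 0.16, adjusted p = 0.00155), also called in 22 of 22 alternatives. Its level was higher at D20+ TGF-β than at D20, with a D1 value of 0.09. Untreated cells fell in D20 vs D1 (−1.12), and treated cells did not differ past the threshold between the times (−0.22). For SORL1 it was 0.96 (SE 0.20, adjusted p = 0.00452), with a rise at D20 and a D1 value of −0.29 (SE 0.15), and this call was lost without any 1 of 6 libraries, at adjusted p between 0.0112 and 0.0176.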

How the results depend on the processing

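Of the log2 fold changes, 410 values under an alternative kept their direction and their side of the threshold, 29 passed it only under the alternative, 6 lost the call and 11 turned direction. The counts of called list genes moved by at most 1.5 times in 107 cases and by more in 7. The 4 changes of PLAUR and the TGF-β responses of SERPINE2 kept their calls throughout. The cause of the differences was not tested, other than that taking lanes as samples raises the number of samples without adding flasks.

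With the 48 lanes as samples (limma-voom), calls were added for PLAT in D20+ TGF-β vs D20 (−1.48) and D20 vs D1 (0.99), for PLAU at D1 (−0.60) and D20 (−0.54) with TGF-β, and for SERPINE2 between the treated groups (−0.62) and in the difference of responses (−0.57), and the called list genes rose to 11 for TGF-β at D1, 10 in D20 vs D1 and 8 in the difference of responses. Without a gene filter, PLAT at D20 (−1.39) and SERPINE2 between the treated groups (−0.67) were called, and 5 list genes in the difference of responses. SERPINE2 between the treated groups was also called by DESeq2 (−0.62) and with filterByExpr (−0.67). With only the 6 libraries compared, PLAT at D20 (−1.39), PLAU at D1 (−0.61) and SERPINE2 between the treated groups (−0.63) were called. Without D1 replicate 2 and D20+ TGF-β replicate 3, chosen after seeing the data, values were −1.09 for PLAT at D20, 1.64 in D20 vs D1 and 0.52 in its difference of responses. PLAU was then at −0.43 at D1, 0.38 between the treated groups and 0.14 in D20 vs D1, PLAUR at −0.11 in the difference of responses, and SERPINE2 at −0.53 between the treated groups, 0.23 in D20 vs D1 and −0.76 in the difference of responses, with 6 list genes called in that difference.

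With each library left out in turn, PLAT lay between −2.94 and −1.61 for TGF-β at D1, −1.64 and −1.10 at D20, 1.63 and 2.17 between the treated groups, and 0.33 and 1.64 in D20 vs D1. PLAU lay between −0.71 and −0.43 for TGF-β at D1, −0.75 and −0.20 at D20, −0.16 and 0.39 between the treated groups, −0.12 and 0.14 in D20 vs D1, and −0.13 and 0.42 in the difference of responses. PLAUR lay between −0.012 and 0.16 in that difference. SERPINE2 lay between −0.68 and −0.52 between the treated groups, −0.26 and 0.23 in D20 vs D1, and −0.86 and −0.37 in the difference of responses. Between 3 and 7 list genes were called for TGF-β at D1 and between 2 and 5 in the difference of responses, with the 3 without D1+ TGF-β replicate 3 and the 5 without D20+ TGF-β replicate 3.

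The replicate numbers were not taken as pairs, since only 4 of 18 same-numbered pairs of libraries had deviations correlated above 0.1 (range −0.22 to 0.32). With the replicate block, PLAT at D20 (−1.49, adjusted p = 0.00898) and SERPINE2 between the treated groups (−0.63, adjusted p = 0.00550) passed the threshold, and no other call of the 4 genes changed.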
